A study of Mus musculus with 18 samples.

Results

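In mouse erythroleukemia (MEL) cells, the RNA of H2afv, H3f3a, H3f3b and H2afx was higher after 5 days in dimethyl sulfoxide (DMSO), and that of H2afy was lower. H2afv, which encodes the second form of the histone H2A.Z, rose 3.84-fold. H3f3a and H3f3b, the pair of genes for histone H3.3, rose 2.24-fold and 1.83-fold, and H2afx, the gene of the DNA damage histone H2A.X, 1.89-fold. H2afy, the gene of macroH2A1, was 1.98-fold higher before treatment than after it. H2afz, H2afj and Cenpa did not pass the test.

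The genes were those of the replication-independent histones, chosen by symbol from a list of 10: the linker histones H1f0 and H1fx, the H2A variants H2afj, H2afv, H2afx, H2afy and H2afz, the H3 variants H3f3a and H3f3b, and the centromeric Cenpa. Of these 10, 9 were matched to the 26599 rows of the expression table, and 8 were expressed highly enough to be tested. The expression of H1f0 was not analysed here. H1fx was listed at 0 in all 4 libraries, so the expression values of listed genes below are those of core histone variants only. Linker histone genes of the replication-dependent set are given apart from this list. MEL is an established line of mouse erythroid precursors transformed by Friend virus, in which DMSO starts hemoglobin synthesis. The libraries came from untreated cultures (day 0) and from cultures given 2% DMSO for 5 days (day 5), with 2 biological replicates of strand-specific sequencing of total RNA on each day. Both days use the same line, most but not all treated cells stained for hemoglobin per the labels, and no culture kept 5 days without DMSO is among the RNA groups. The same cells were also profiled for the factor PU.1, open chromatin and polymerase II contacts, which were not analysed here.

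Most histone genes are transcribed in S phase, when DNA is copied, and their RNAs end in a stem-loop. The replication-independent variants can also be made outside S phase, largely from ordinary polyadenylated messages (H2afx can give both kinds). Dedicated chaperones place them in chromatin outside replication. H3.3 marks transcribed genes and regulatory elements, H2A.Z flanks transcription starts, macroH2A is found in repressed chromatin, H2A.X is phosphorylated around DNA breaks, and CENP-A defines the centromere. Linker histones bind the DNA between nucleosomes and compact it. Erythroid nuclei condense strongly as the cells mature.

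The stretches just before the transcription start are shown for both H2A.Z genes, both H3.3 genes and H2afy. These are the gene pairs that encode the same or nearly the same variant, and the gene that fell. H2afx, which rose, had no promoter entry. They are 250 bases long, from RefSeq on GRCm38.p6, 5′ to 3′ on the strand of the gene, with each CCAAT or its reverse complement ATTGG in capitals. The windows lie at chr11:6444444-6444693 (minus strand) for H2afv, chr3:137864237-137864486 (plus) for H2afz, chr1:180813606-180813855 (minus) for H3f3a, chr11:116024505-116024754 (minus) for H3f3b and chr13:56135551-56135800 (minus) for H2afy.
H2afv: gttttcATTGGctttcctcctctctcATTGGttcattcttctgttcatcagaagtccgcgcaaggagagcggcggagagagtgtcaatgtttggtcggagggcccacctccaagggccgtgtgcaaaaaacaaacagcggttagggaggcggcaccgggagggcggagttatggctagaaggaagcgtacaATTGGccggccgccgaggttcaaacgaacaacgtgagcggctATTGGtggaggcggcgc
H2afz: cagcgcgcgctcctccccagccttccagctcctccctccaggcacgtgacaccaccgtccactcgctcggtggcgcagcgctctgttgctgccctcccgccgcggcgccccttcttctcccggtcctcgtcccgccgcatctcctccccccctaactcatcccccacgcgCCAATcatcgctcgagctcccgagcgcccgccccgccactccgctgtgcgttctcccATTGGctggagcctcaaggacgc
H3f3a: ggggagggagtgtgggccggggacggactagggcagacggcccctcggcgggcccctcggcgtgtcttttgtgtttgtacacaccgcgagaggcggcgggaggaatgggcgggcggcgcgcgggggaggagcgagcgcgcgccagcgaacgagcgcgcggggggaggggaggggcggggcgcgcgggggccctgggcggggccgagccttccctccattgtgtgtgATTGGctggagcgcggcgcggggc
H3f3b: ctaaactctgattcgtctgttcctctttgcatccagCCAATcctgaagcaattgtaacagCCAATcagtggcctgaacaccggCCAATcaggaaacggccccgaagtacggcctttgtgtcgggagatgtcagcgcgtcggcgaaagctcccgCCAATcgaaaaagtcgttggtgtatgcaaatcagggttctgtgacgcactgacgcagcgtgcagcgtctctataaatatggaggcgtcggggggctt
H2afy: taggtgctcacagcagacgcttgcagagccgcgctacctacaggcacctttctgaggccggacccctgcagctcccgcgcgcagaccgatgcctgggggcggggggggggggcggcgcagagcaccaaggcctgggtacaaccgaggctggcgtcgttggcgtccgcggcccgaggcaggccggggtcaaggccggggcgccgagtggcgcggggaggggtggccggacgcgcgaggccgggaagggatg
CCAAT, the letters bound by the factor NF-Y, occurred on either strand 4 times before H2afv, 2 times before H2afz, 1 time before H3f3a and 4 times before H3f3b. It occurred 0 times before H2afy, H1f0 and H1fx. Before H2afj it occurred 3 times and before Cenpa 2 times, and these genes, like H2afz, did not pass. Over the 9 genes of the list with an entry, H1f0 and H1fx included, it was found in 6, against 33.8% of 32851 promoters of the same length. The GC content differed within each pair of genes, at 57.2% for H2afv and 71.2% for H2afz, and at 77.2% for H3f3a and 54% for H3f3b, beside a median of 52.4% over all promoters. H2afy had 74.8%. A match describes letters in this window and is no evidence of binding.

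A further set of short motifs was searched on both strands of the same windows. The GC box, written GGGCGG, was found in 6 of the 9 promoters (32.7% of all promoters). The core of ETS factors such as PU.1, GAGGAA, was found in 4 (23.3%). E2F letters, taken as TTCCCGC or as the sequence TTGGCGC, were found in 2 promoters (5.62%), and in H2afz one of these overlapped a match of the CCAAT box. The letters read by GATA factors, AGATAA, were found in 1 promoter (9.99%). The cell cycle homology element (TTTGAA) was found in 1 promoter (16%), that of H2afv. The H1 box of linker histone genes (AAACACA) was found in 1 (6.25%), that of H3f3a, and in neither H1f0 nor H1fx.

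The 4 libraries were alike in size on the deposited scale, FPKM (fragments scaled to transcript length and to library size), with sums of 758150 to 787494 and 10227 to 10601 genes at 1 FPKM or more. FPKM hold no read counts, so the depth behind each value is unknown. Across genes, replicates correlated at 0.964 on day 0 and 0.939 on day 5. Among 10 erythroid markers 8 passed upward, and their FPKM summed to 1847 and 1297 before treatment and to 30429 and 25865 after it. Among 12 myeloid markers 4 could be tested and 3 passed downward, with sums of 102 and 148 FPKM on day 0 and 6.31 and 10.6 on day 5; Csf1r, Mpo, Elane, Lyz2, Ly6g and Emr1 were at 0 in all libraries. Among 6 megakaryocyte markers 1 of 4 tested passed upward, Itga2b, at 15.4 and 7.32 FPKM on day 0 and 104 and 92.8 FPKM on day 5 (limma adjusted p = 0.0118), while the list summed to 57.8 and 18.3 FPKM and then 139 and 112 FPKM. In each of 3 further lists the 1 gene tested passed downward. Vim, of the fibroblast and epithelial list, had 150 and 142 FPKM on day 0 and 9.60 and 6.33 FPKM on day 5 (limma adjusted p = 0.00416). Hdc, of the mast cell and basophil list, had 10.2 and 6.13 FPKM and then 0.382 and 0.376 FPKM (limma adjusted p = 0.0148), and Thy1, of the lymphoid list, 5.57 and 2.04 FPKM and then 0 in both libraries (limma adjusted p = 0.0388). The other members of these 3 lists stayed under 1 FPKM, with Cpa3, Fcer1a, Mcpt8, Tpsb2, Cd3e, Cd4, Ighm and Krt18 at 0 in all libraries. These genes were named after their values were seen. In bulk RNA, fewer cells of a type and less RNA per cell cannot be told apart, and the part of these marker genes in the changes below was not tested. Dividing-cell genes are given with the chaperones.

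Day 5 was compared with day 0 by limma on log2(FPKM + 1) over 10736 genes, and a gene passed where its Benjamini-Hochberg adjusted p was below 0.05. This scale understates the change of low genes. Over all genes tested 18.5% passed, 10.7% upward and 7.81% downward. Of the 8 variant genes tested, 4 rose, 1 fell and 3 did not pass. Their median log2 fold change was 0.35, beside 0.15 over all genes tested. Both libraries of one day lay above both of the other for 7 of the 8 genes, 4 with day 5 higher and 3 with day 5 lower. Over all genes tested the same held for 67.2%, with 40.2% higher and 27% lower on day 5. All 5 calls were lost when any 1 library was left out, where at most 0.121% of all genes passed, and when genes of low FPKM were not filtered out, where 1.56% of 15168 genes passed. The sign of each of the 5 changes was the same in all of these fits.

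H2A.Z is encoded by H2afz and H2afv, whose proteins differ at only a few residues. H2afz (ENSMUSG00000037894.7) was the most abundant variant on both days by mean, at 2598 and 1835 FPKM on day 0 and 1764 and 1865 FPKM on day 5. Day 0 replicate 1 stood above the other 3 libraries, which were close together, and the days overlapped. The means were 2217 ± 539 and 1815 ± 71.0 FPKM (SD, n = 2 each). The log2 fold change was −0.27 ± 0.24 (SE), with a 95% confidence interval of −0.87 to 0.33, and did not pass (limma adjusted p = 0.445). It was −0.02 without day 0 replicate 1 and −0.52 without day 0 replicate 2. H2afv (ENSMUSG00000041126.8) was listed at 78.0 and 62.2 FPKM on day 0 and at 290 and 249 FPKM on day 5. Both day 5 libraries lay far above both day 0 libraries. Its mean was 70.1 ± 11.2 FPKM on day 0 and 269 ± 28.7 FPKM on day 5 (SD, n = 2 each). The log2 fold change of 1.93 ± 0.19 (SE), with an interval of 1.45 to 2.42, was the largest among the 8 genes (limma adjusted p = 0.00943). With 1 library left out at a time it ranged from 1.77 to 2.09, with limma adjusted p of 0.066 to 0.167.

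H2afz remained the main H2A.Z message on both days, with a larger part for H2afv on day 5. H2afv made up 2.92% and 3.28% of the summed FPKM of the pair on day 0 and 14.1% and 11.8% on day 5. The groups did not overlap, and the mean share was 3.10 ± 0.256% and 12.9 ± 1.64% (SD, n = 2 each). On the log2 scale the ratio of H2afv to H2afz moved from −4.97 ± 0.123 to −2.76 ± 0.210, a difference of 2.21. A two-sided exact permutation test gave p = 0.333, the smallest that 2 libraries against 2 allow. Summed over the pair, the day 0 libraries had 2676 and 1898 FPKM and the day 5 libraries 2054 and 2114 FPKM, so the days overlapped (exact permutation p = 1). That difference of means was −203 FPKM, and 186 FPKM without day 0 replicate 1, which turned its direction.

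**Figure D1:**
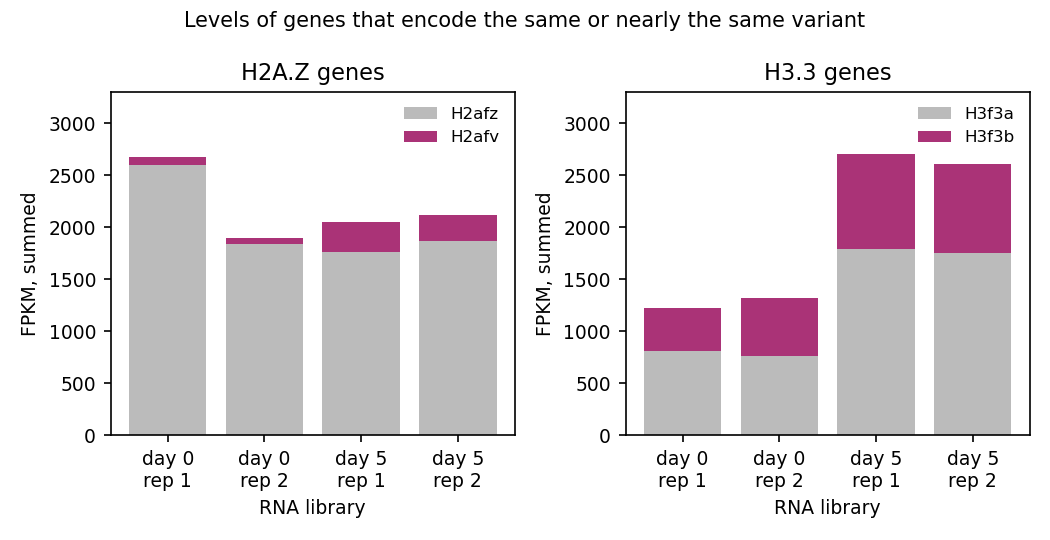
Summed FPKM of the gene pairs that encode H3.3 (H3f3a and H3f3b) and H2A.Z (H2afz and H2afv) in each of the 4 RNA libraries, with the genes stacked and the axes starting at 0. The H3.3 pair reached 2708 and 2605 FPKM on day 5 against 1225 and 1322 FPKM on day 0, while the H2A.Z pair stayed between 1898 and 2676 FPKM with a larger H2afv part on day 5.

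H3f3a and H3f3b encode an identical H3.3 protein from different chromosomes. H3f3a (ENSMUSG00000060743.6) was listed at 809 and 766 FPKM on day 0 and at 1788 and 1749 FPKM on day 5. The replicates were close and the days well apart. The mean went from 788 ± 30.6 to 1768 ± 27.9 FPKM (SD, n = 2 each), a log2 fold change of 1.17 ± 0.17 (SE; interval 0.74 to 1.59; limma adjusted p = 0.0178). H3f3b (ENSMUSG00000016559.8) was listed at 416 and 556 FPKM on day 0 and at 920.4 and 857 FPKM on day 5. Its day 0 replicates differed more than those of H3f3a, but both stayed below day 5. The mean went from 486 ± 99.2 to 889 ± 44.9 FPKM (SD, n = 2 each), a log2 fold change of 0.88 ± 0.21 (SE; interval 0.37 to 1.40; limma adjusted p = 0.0426). With 1 library left out the log2 fold change stayed at 1.13 to 1.21 for H3f3a (limma adjusted p 0.0793 to 0.168) and 0.67 to 1.09 for H3f3b (0.123 to 0.168). H3f3b also missed the threshold without the trend of variance on level (limma adjusted p = 0.0702).

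Together the H3.3 genes had 1225 and 1322 FPKM on day 0 and 2708 and 2605 FPKM on day 5. The mean sum was 1274 ± 68.6 and 2657 ± 72.8 FPKM (SD, n = 2 each), 2.09-fold higher on day 5 (exact permutation p = 0.333, the smallest possible). H3f3a held 66.1% and 57.9% of the pair on day 0 and 66.0% and 67.1% on day 5, so its share overlapped between the days (exact permutation p = 0.667). The day 0 libraries gave ratios of H3.3 to H2A.Z messages of 0.458 and 0.697, and the day 5 libraries 1.32 and 1.23. H2A.Z messages thus exceeded H3.3 messages in both day 0 libraries and were below them in both day 5 libraries (exact permutation p = 0.333). Processed copies of H3f3a, H3f3b and H2afz exist elsewhere in the genome, and the rule by which reads shared with them were assigned is not known here.

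H2A.X serves as the substrate of the kinases that mark broken DNA. H2afx (ENSMUSG00000049932.2) was listed at 87.1 and 85.1 FPKM on day 0 and at 180.4 and 145 FPKM on day 5. Both day 5 libraries were higher, and they differed more from each other than the day 0 libraries did. The mean went from 86.1 ± 1.47 to 163 ± 24.8 FPKM (SD, n = 2 each), a log2 fold change of 0.90 ± 0.18 (SE; interval 0.45 to 1.36; limma adjusted p = 0.0321). It missed the threshold without the trend of variance (limma adjusted p = 0.0577) and with any 1 library left out (0.0789 to 0.188). In RefSeq's GRCm38 annotation H2afx lies within 1 kb of Dpagt1, an enzyme of protein glycosylation, which had 18.6 FPKM on day 0 and 13.0 FPKM on day 5 and did not pass (log2 fold change −0.48, limma adjusted p = 0.211). The part of neighbouring genes in the H2afx value was not tested, and whether strand was used in counting is not known here.

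MacroH2A1, the product of H2afy, carries a large extra domain at its C-terminal end. H2afy (ENSMUSG00000015937.8) was listed at 87.6 and 88.1 FPKM on day 0 and at 47.9 and 40.7 FPKM on day 5. It was the only variant gene that passed downward, with both day 5 libraries below both of day 0. The mean went from 87.8 ± 0.369 to 44.3 ± 5.10 FPKM (SD, n = 2 each), a log2 fold change of −0.98 ± 0.18 (SE; interval −1.42 to −0.53; limma adjusted p = 0.0265). Leaving out 1 library gave −1.09 to −0.86 (limma adjusted p 0.0919 to 0.182). Its splice forms are not separated in these values. The related H2afy2, the gene of macroH2A2, was listed at 0 in all 4 libraries.

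H2afj encodes an H2A variant close in sequence to canonical H2A. H2afj (ENSMUSG00000060032.4) was listed at 55.5 and 58.7 FPKM on day 0 and at 23.5 and 51.8 FPKM on day 5. The 2 day 5 libraries disagreed, with replicate 2 just under day 0 and replicate 1 well below it. The log2 fold change of −0.69 ± 0.38 (SE; interval −1.64 to 0.27) did not pass (limma adjusted p = 0.237). It was −0.14 without day 5 replicate 1 and −1.24 without day 5 replicate 2. Among the 5 H2A variant genes together, H2afz made up 89.4% and 86.2% of the FPKM on day 0 and 76.5% and 79.3% on day 5. H2afv held 2.68% and 2.92% on day 0 and 12.6% and 10.6% on day 5, and H2afx 3.00% and 3.99% and then 7.82% and 6.18%. H2afy went from 3.01% and 4.14% to 2.08% and 1.73%. None of these 4 shares overlapped between the days (exact permutation p = 0.333 each), whereas that of H2afj did, at 1.91% and 2.76% and then 1.02% and 2.20%.

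Cenpa encodes the H3 variant of the centromere, which is loaded once in each cell cycle. Cenpa (ENSMUSG00000029177.3) was listed at 256 and 223 FPKM on day 0 and at 222 and 201 FPKM on day 5. The lower day 0 library and the higher day 5 library were almost equal. The mean was 239 ± 23.3 and 211 ± 15.2 FPKM (SD, n = 2 each). The log2 fold change of −0.18 ± 0.17 (SE; interval −0.60 to 0.25) did not pass (limma adjusted p = 0.474), and it was 0.12 after quantile normalization (limma adjusted p = 0.652), so that no direction can be given.

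**Figure D2:**
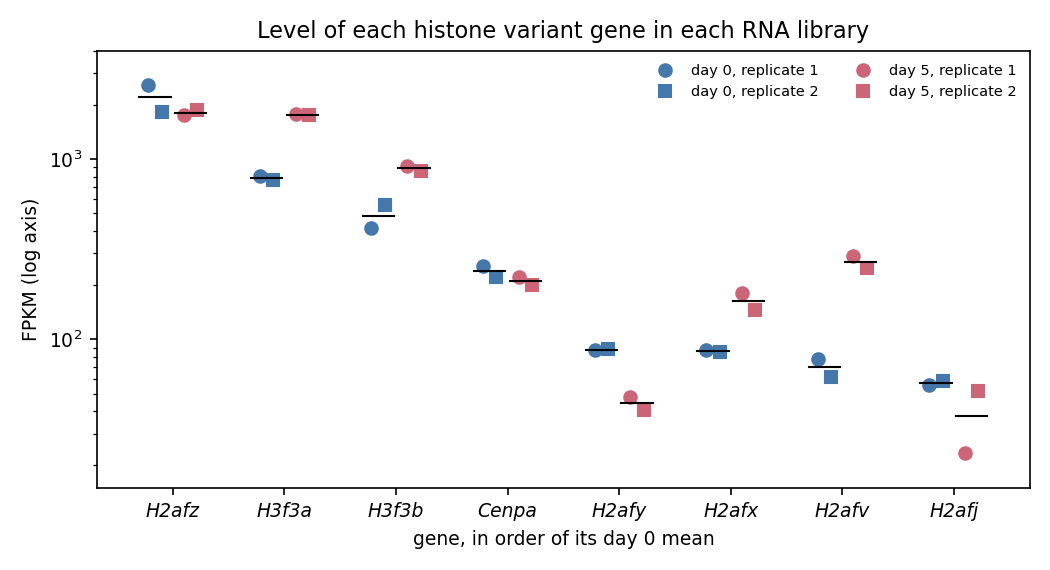
FPKM (log axis) of the 8 tested histone variant genes in each of the 4 RNA libraries, ordered by the day 0 mean, with 1 point per library. H2afv moves from 62.2 to 78.0 FPKM on day 0 to 249 to 290 FPKM on day 5, and H2afy lies lower on day 5.

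By mean FPKM, a scale per transcript length, the day 0 order was H2afz, H3f3a, H3f3b, Cenpa, H2afy, H2afx, H2afv and H2afj, and it was the same in both libraries. H2afy and H2afx were hardly apart there, the lowest H2afy library having 87.6 FPKM and the highest H2afx library 87.1 FPKM. The day 5 order was H2afz, H3f3a, H3f3b, H2afv, Cenpa, H2afx, H2afy and H2afj. H2afz and H3f3a overlapped on day 5, with H3f3a first in replicate 1, and so did H2afy and H2afj. H2afv went from rank 7 to rank 4, and from percentile 83.8 to percentile 96.6 among all genes tested. H2afz stayed at percentile 99.6 and 99.5. All 9 genes with a row held 0.566% and 0.485% of the summed FPKM on day 0 and 0.665% and 0.660% on day 5 (exact permutation p = 0.333).

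**Figure D3:**
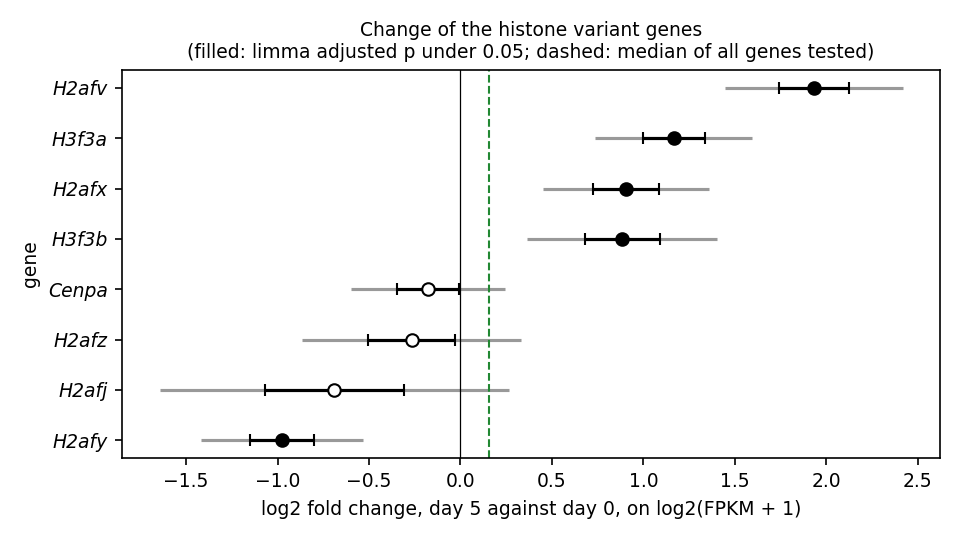
Log2 fold change of day 5 against day 0 on log2(FPKM + 1) for the 8 tested variant genes, with 95% confidence intervals, filled where the limma adjusted p was under 0.05, and a dashed line at the median of all genes tested. H2afv lies farthest from 0 at 1.93, and H2afy is the only filled point below 0, at −0.98.

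Linker histones of the replication-dependent set gave 1 call. These 5 genes are similar in sequence, so reads may be split among them. Messages that end in a stem-loop and polyadenylated ones are not separated in these values, and the part of each was not tested. Hist1h1c, which encodes histone H1.2, was listed at 6.60 and 8.49 FPKM on day 0 and at 102 and 107 FPKM on day 5. Its replicates were close and its days far apart, with means of 7.54 ± 1.34 and 105 ± 3.44 FPKM (SD, n = 2 each). The log2 fold change was 3.64 ± 0.21 (SE; limma adjusted p = 0.00397), a 13.9-fold rise in FPKM. With 1 library left out it stayed above 3 (limma adjusted p 0.0585 to 0.167), and 0 genes of this or the following lists then passed. The other linker genes were low: Hist1h1e had 0.726 and 2.68 FPKM on day 0 and 2.63 and 5.57 FPKM on day 5 (limma adjusted p = 0.232), and Hist1h1d at most 1.44 FPKM in any library (limma adjusted p = 0.0953). Hist1h1d passed without the filter on low FPKM (limma adjusted p = 0.0474) and without the trend of variance (0.0401). Hist1h1a was listed at 0 in replicate 2 of both days and did not pass (log2 fold change −0.02, limma adjusted p = 0.987, with its sign turning when 1 library was left out), and Hist1h1b, at 1.40 FPKM in day 0 replicate 2 alone, was too low to test. Of 13 other variant genes, most known from testis or oocyte, 8 had a row and 0 reached the level for a test, while 7 were listed at 0 throughout. Hist1h2ba was listed at 12.9 FPKM in day 5 replicate 1 and near 0 elsewhere. A value of 0 or near 0 may be a failed estimate here: Ppia, a gene every cell uses, chosen after its values were seen, was listed at 2.98 and 0.547 FPKM on day 0 and under 1 FPKM in both day 5 libraries.

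Chaperones that carry H3 and H4 followed no common direction. Of 17 tested genes 1 rose, 3 fell and 13 did not pass, with a median log2 fold change of −0.31. Over all genes tested 10.7% rose and 7.81% fell, with a median of 0.15, to be set beside this list and the others. Ubn1, a subunit of the HIRA complex that places H3.3, was listed at 15.6 and 16.8 FPKM on day 0 and 31.2 and 31.3 FPKM on day 5 (log2 fold change 0.90 ± 0.19 SE, limma adjusted p = 0.0366). Ubn1 missed the threshold after quantile normalization (0.73, limma adjusted p = 0.0617) and with the replicate number as a block (limma adjusted p = 0.0519). Nasp, a carrier of free H3 and H4, fell from 203 and 270.2 to 64.8 and 63.0 FPKM (−1.86 ± 0.20 SE, limma adjusted p = 0.0107). Hat1, which acetylates new H4, fell from 232 and 210.1 to 75.8 and 99.4 FPKM (−1.34 ± 0.20 SE, limma adjusted p = 0.0180). Rbbp7, its partner, fell by 0.65 (limma adjusted p = 0.0499). The remaining H3.3 carriers did not pass: log2 fold changes were −0.31 for Hira (limma adjusted p = 0.301), 0.57 for Atrx (0.0954) and 0.45 for Daxx (0.392). Rbbp7, Hira, Atrx and Daxx were added to the text for their role after their values were seen.

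Of the 24 tested entries for H2A.Z exchange and for H2A-H2B chaperones, 3 rose, 7 fell and 14 did not pass, with a median of 0.00. Trrap, a scaffold of the p400 complex, was listed at 13.2 and 8.85 FPKM on day 0 and 30.3 and 45.4 FPKM on day 5 (log2 fold change 1.69 ± 0.31 SE, limma adjusted p = 0.0272). Srcap, the motor that exchanges H2A for H2A.Z, has 2 entries, between which its reads may be split. Entry ENSMUSG00000053877.6 passed at 1.17 ± 0.29 (SE; limma adjusted p = 0.0479), and ENSMUSG00000090663.1 did not, at 0.37 ± 0.20 (limma adjusted p = 0.242). The first entry missed the threshold with a pseudocount of 0.1 (limma adjusted p = 0.0556), after quantile normalization (0.0518) and without the trend of variance (0.0651), and it was 1.54 without day 0 replicate 1 and 0.81 without day 0 replicate 2. Brd2, a reader of acetylated histones, rose by 0.86 (limma adjusted p = 0.0414). Npm1 fell from 3860 and 4287 to 1146 and 1362 FPKM (−1.70 ± 0.20 SE, limma adjusted p = 0.0126) and Ncl from 471 and 528 to 158 and 185 FPKM (−1.54 ± 0.17 SE, limma adjusted p = 0.0116); both are nucleolar proteins that also bind histones. The other genes that fell were Ruvbl1 (−1.01), Ruvbl2 (−1.28) and Actl6a (−1.03), shared subunits of the exchange complexes, Ssrp1 (−0.90), a subunit of the FACT complex, and Nap1l1 (−0.92), a carrier of H2A and H2B, with limma adjusted p of 0.0206 to 0.0477. Anp32e, which removes H2A.Z, was listed at 1308 and 1594 FPKM on day 0 and 408 and 860.3 FPKM on day 5, which do not overlap, but it did not pass (−1.28 ± 0.38 SE, limma adjusted p = 0.0686). Ep400 had 0.93 (limma adjusted p = 0.0684). Besides Trrap, Srcap, Npm1 and Ncl, these genes were named after their values were seen.

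**Figure D4:**
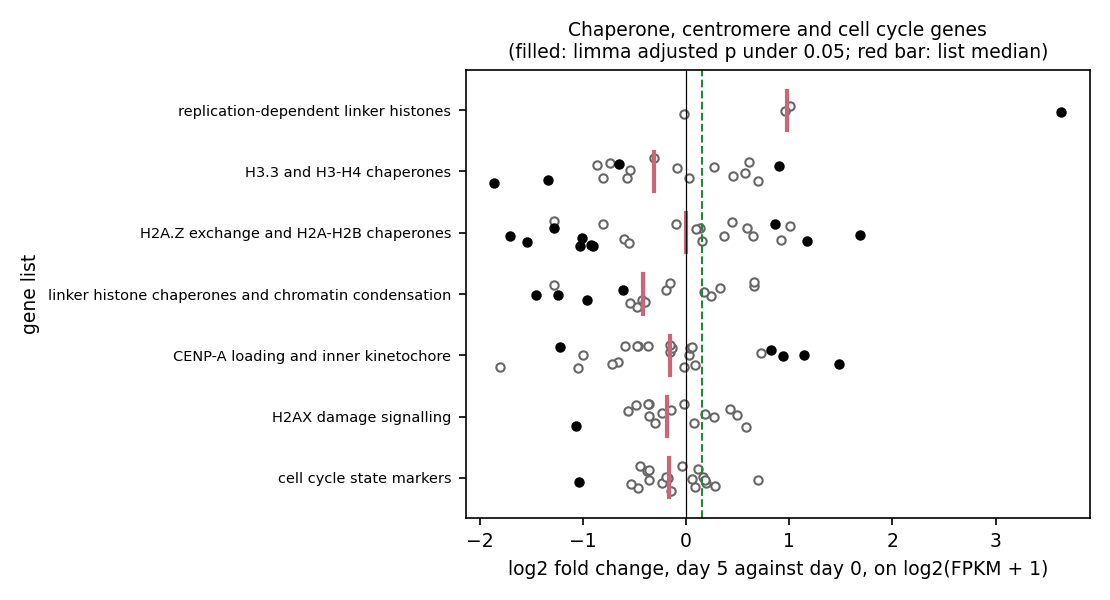
Log2 fold change of day 5 against day 0 on log2(FPKM + 1) for each tested gene of the linker histone, chaperone, condensation, kinetochore, damage signalling and cell cycle lists, filled where the limma adjusted p was under 0.05, with a red bar at the list median and a dashed line at 0.15, the median of all genes tested. Hist1h1c lies farthest right at 3.64, the medians of the other lists lie between −0.42 and 0.00, and filled points are on both sides of 0 for the H3.3, H2A.Z and CENP-A lists.

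Linker histone chaperones and condensation proteins held 16 tested genes, of which 0 rose and 4 fell, with a median of −0.42. Set fell from 648 and 637 to 194 and 282 FPKM (−1.45 ± 0.23 SE, limma adjusted p = 0.0198), and Anp32a from 443 and 450.04 to 220 and 161 FPKM (−1.24 ± 0.20 SE, limma adjusted p = 0.0221). Both belong to complexes that bind histones and block their acetylation. Anp32b (−0.96) and Cbx3, a heterochromatin protein (−0.61), were named after their values were seen and also fell (limma adjusted p = 0.0299 and 0.0499).

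For CENP-A loading and the inner kinetochore, 23 genes were tested, of which 4 rose, 1 fell and 18 did not pass, with a median of −0.15. Mis12, of the complex that joins centromere and outer kinetochore, had 22.6 and 20.7 FPKM on day 0 and 63.9 and 60.2 FPKM on day 5 (log2 fold change 1.48 ± 0.18 SE, limma adjusted p = 0.0128). Cenpb, which binds centromeric satellite DNA, rose by 1.15 (limma adjusted p = 0.0281), and Cenpw fell by 1.22 (0.0228). Hjurp, the chaperone of CENP-A, was named after its values were seen, as was Cenpc1. Hjurp had 55.5 and 43.2 FPKM on day 0 and 84.8 and 90.0 FPKM on day 5 and rose by 0.82 (limma adjusted p = 0.0441), and Cenpc1 by 0.94 (0.0369). Cenpa itself did not pass.

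Most H2AX signalling genes did not pass, as was so over all genes tested, of which 10.7% rose and 7.81% fell. Of 16 tested genes 0 rose and 1 fell, with a median of −0.18. That gene was Mre11a, a nuclease that processes DNA breaks, at 80.3 and 83.9 FPKM on day 0 and 46.2 and 32.5 FPKM on day 5 (log2 fold change −1.06 ± 0.22 SE, limma adjusted p = 0.0354). It missed the threshold without the trend of variance (limma adjusted p = 0.0557). Of 20 tested genes of dividing cells, 0 rose and 1 fell, with a median of −0.16. Mcm3, of the replicative helicase, fell by 1.04 (limma adjusted p = 0.0336) and likewise missed it without the trend (0.0559). Mki67, named after its values were seen, had 223 and 209.6 FPKM on day 0 and 258 and 236 FPKM on day 5 and did not pass (limma adjusted p = 0.408). Summed over the 20 genes, the day 0 libraries had 2675 and 2837 FPKM and the day 5 libraries 2808 and 2620 FPKM, so the days overlapped.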

How the data were processed

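Total RNA of 4 MEL cultures, 2 per day, was sequenced by a strand-specific protocol, per the labels. The authors deposited FPKM per gene and library in 1 table; the submitters' processing notes list Bowtie, with no version, and the build mm9, and the program that computed the FPKM is not known here. Groups and replicates came from the sample titles. Rows reaching 1 FPKM in 2 libraries or more (10736 of 26599) were transformed as log2(FPKM + 1). The days were compared with limma 3.58.1 (R 4.3.3), using lmFit with an intercept and day and a two-sided eBayes test with a variance trend, adjusted over all genes by Benjamini-Hochberg. Sums and shares were compared by exact permutation of the 4 libraries. Of 193 listed symbols 185 had a row, matched by symbol, older symbol or gene ID; 324 rows share a symbol with another.

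Named genes were all members, the linker histone genes, and up to 2 called genes per direction of each list with the largest change. Members and lists were chosen with earlier results of these data known. On simulated data with the means and spread of these 10736 genes, 27 of 100 changes of 1 (log2) and 99 of 100 of 2 were recovered, with 11 false calls. The changed genes were drawn only from those above the median level, and all others were left unchanged. Far more genes were called in the real data, and lower genes were not tried, so these shares need not hold there. Alternatives were the pseudocount, the filter, the scaling, the variance model, the replicate block and leaving out each library. Region files use mm9 positions and gene positions were held only for GRCm38, so chromatin at these genes was not analysed here; RefSeq served for promoter sequences and for which genes neighbour each other. Some genes are not reported here.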

Additional observations from a re-analysis of the deposited data

How the results depend on the processing

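With 2 libraries per day the calls have little reserve. Leaving out any 1 library, with the lone library taken to vary like the others, left 0 of the 8 variant genes past the threshold in either direction, 0 list genes, and over all genes 0 to 2 higher and 0 to 11 lower; 5 or 6 variant genes stayed at an unadjusted limma p under 0.05. Without a filter on low FPKM, which adds genes to give 15168, limma called 120 genes higher and 117 lower (1.56%), 0 variant genes in either direction (5 at an unadjusted p under 0.05) and 3 list genes higher and 2 lower, against 9 and 17 as reported. Without the trend of variance, 2 variant genes were higher and 1 lower, and 10 list genes were lower; the cause was not tested. The replicate numbers share no documented source, and deviations of equal numbers correlated at 0.048; the fit with the replicate block kept all 5 variant calls and called 5 list genes higher. All 5 variant calls also held with a pseudocount of 0.1, a filter of 5 FPKM, quantile normalization, globin or mitochondrial genes removed, robust variance and, chosen after seeing the data, libraries rescaled to 1 sum. Quantile normalization moved the median of all genes from 0.15 to 0.01 and the split of calls from 1150 higher and 839 lower to 814 and 895. The sign turned for Cenpa (0.12 after quantile normalization), and, with 1 library left out, Hist1h1a (−0.61 to 0.57; 0.55 when day 5 lost replicate 2), the difference in the sum of H2afz and H2afv (−592 to 186 FPKM) and that of the 5 H2A genes (−577 to 199 FPKM). Alternatives for H1f0 and for chromatin sites were not run. Unknown depth limits every value under a few FPKM.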
